A study of Xenopus tropicalis with 3 samples.

Results

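The animal cap is the roof of the Xenopus blastula, dissected as prospective epidermis, and in isolation it develops into the mucociliary epidermis of the tadpole. RNA of Xenopus tropicalis caps at NF24 (tailbud, by Nieuwkoop and Faber staging) was compared with RNA of caps at NF16 (neurula). The labels give no allele, treatment or agent for either stage, and both share the same tissue, dissection and library protocol. The same table holds caps at NF10.5 (gastrula), which are given here only as earlier levels. Each stage is a single column that the labels tie to 3 biological replicates, and its values are taken as means over them, so no spread, test or p-value can be given for any difference. A level is in FPKM, a count of fragments scaled to transcript length and library size, summed over the transcripts of a gene, and the sequencing depth behind it is unknown.

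Of 17647 genes in the table, 11131 (63.1%) had 1 FPKM or more in at least 1 of the 2 stages and were compared, and the other 6516 were below 1 FPKM at both. The difference is log2(FPKM + 1) at NF24 minus the same at NF16, and a gene is called higher or lower at NF24 when the size of that difference reaches 1, equal to a ratio of 2 once 1 is added to both levels. By this rule 813 genes (7.3%) were higher and 570 genes (5.12%) lower, and 9748 (87.6%) were not called. The median difference was 0.14, with quartiles at -0.26 and 0.52. The split depends on scaling, with 565 higher and 792 lower under median-of-ratios scaling, which sets the median difference to 0, and 571 and 726 under quantile normalization. Gene families are therefore read against the shares of 7.3% and 5.12% and against the median of 0.14. A gene near 0 at NF16 enters the comparison only by reaching 1 FPKM at NF24, and the reverse, so calls of low genes are partly built in. At the filter, kcnj16 reached 1 FPKM and ephx3, at 0.997 FPKM, did not. Values ran on without a gap at the call. Just inside it lay dock5 (11.4 and 23.8 FPKM) and atf3 (7.02 and 15.1 FPKM) on the higher side and kiaa1324l (93.7 and 46.3 FPKM) on the lower. Just outside lay vim (12.1 and 25.3 FPKM) and the epidermal stem cell factor tp63 (212 and 106 FPKM). Pairs of levels give NF16 first and NF24 second, and triplets put NF10.5 before them.

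The larval epidermis of Xenopus is a model of the mucociliary linings of airways. Its outer layer is made mostly of goblet cells that secrete mucus, and between them intercalate multiciliated cells, ionocytes that move ions and protons, and small secretory cells that release serotonin. A multiciliated cell leaves the cell cycle, assembles a large number of centrioles from structures called deuterosomes, docks them at the surface as basal bodies and grows a motile axoneme from each. Between neurula and tailbud these cells come to the surface and begin to beat.

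The labelled tissue was checked against its markers. All 11 epidermal markers were at 1 FPKM or more at NF16 or NF24 and summed to 36936 and 36396 FPKM, most of it keratin. FPKM over all genes summed to 531531 and 505996. Markers of other tissues were also found, at levels that differed by tissue, and their sums are over all measured markers of a list. Of 21 neural crest and pigment markers 19 were compared, and the list summed to 2142 and 1374 FPKM. Cement gland markers summed to 907 and 695 FPKM (6 of 8 compared). The largest single levels in these lists were those of id3, also a BMP target, at 1265 and 698 FPKM and of agr2, also a goblet gene, at 672 and 539.9 FPKM. Neural markers gave 296 and 238 FPKM (21 of 30). Of these 21, 4 were higher and 1 lower, with a median of 0.09 that turned to -0.02 under median-of-ratios scaling. With a pseudocount of 5 the counts were 1 and 1. The neural plate gene sox3 was at 89.3 and 28.1 FPKM and the neuronal tubb3 at 3.95 and 16.6 FPKM. Markers of heart, notochord and other mesoderm gave 243 and 288 FPKM (16 of 23) and muscle and somite markers 186 and 341 FPKM (17 of 20). Endoderm markers summed to 159 and 88.04 FPKM (9 of 20). The highest of them were cdx2, at 68.7 and 21.2 FPKM, and foxa1, also of small secretory cells, at 64.6 and 49.5 FPKM. When RefSeq names were also used for matching, the endoderm list summed to 293 and 289 FPKM (10 of 21). The member added in this way was more abundant than cdx2 and foxa1 at both stages. It was higher at NF24 without a call, with the largest log2 difference of the list, 0.58. Markers of blood, endothelium and myeloid cells gave 12.7 and 34.7 FPKM (9 of 23). Of these 9, 4 were higher and none lower, with a median of 0.97. Their median level at NF16 was 0.463 FPKM, and most entered the comparison only by reaching 1 FPKM at NF24. Of the heart genes the early regulators nkx2-5 and hand2 were at 96.5 and 92.3 FPKM and 42.3 and 82.04 FPKM, while nppa and tnnt2 of differentiated heart muscle were listed at 0 and 0 FPKM and at 0 and 0.03 FPKM. In such bulk RNA fewer cells of a type and less RNA per cell cannot be told apart.

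**Figure D1:**
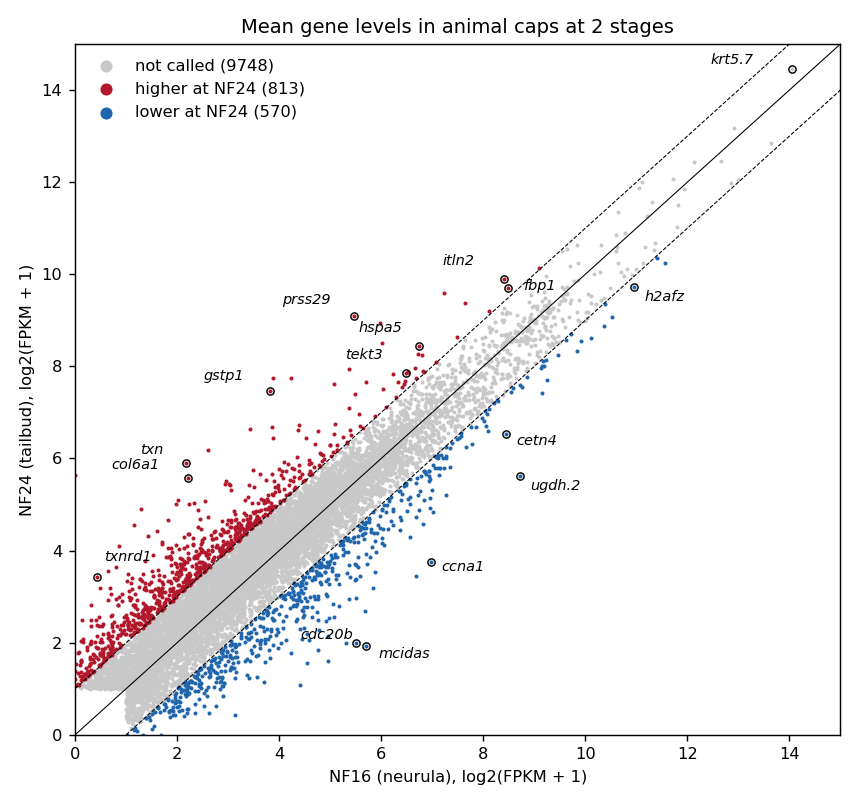
Level of each compared gene at NF16 (x axis) and NF24 (y axis), both as log2(FPKM + 1); each point is 1 gene, the solid line marks equal levels and the dashed lines a log2 difference of 1 and -1. Most points (9748 of 11131) lie between the dashed lines, 813 lie above and 570 below, and mcidas, cdc20b, txn, gstp1 and prss29 are among the points farthest from the diagonal.

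A subset of the genes that start the multiciliated programme, led by mcidas, was lower at NF24. Of 19 compared members of the cascade, 5 were lower, 0 higher and 14 not called, with a median of -0.42 and 7 members above 0. The coactivator mcidas (Multicilin), which works with E2f4 or E2f5 to switch on centriole genes, went from 1.23 FPKM at NF10.5 to 50.9 at NF16 and back to 2.78 at NF24. Its neighbours were nearly as far apart, cyclin O (ccno) at 25.8, 50.3 and 5.45 FPKM and cdc20b, a relative of the mitotic activator Cdc20, at 0.34, 44.5 and 2.96 FPKM. The forkhead factor foxn4 had levels of 1.12, 56.4 and 8.05 FPKM. These 4 genes had their highest level of the 3 stages at NF16. The master regulators of the motile axoneme kept more of their level, foxj1 at 98.9 and 58.9 FPKM, a log2 difference of -0.74, and rfx2 at 109.6 and 48.04 FPKM, a difference of -1.17. The p53 relative tp73 was at 38.7 and 26.8 FPKM.

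The genes ccno, mcidas and cdc20b lie next to each other in the RefSeq annotation (assembly UCB_Xtro_10.0, used here for order and names only). The next compared genes on either side were not called, dhx29 at 14.3 and 13.3 FPKM and gpx8 at 2.60 and 2.92 FPKM. So the difference covered 3 consecutive genes, with log2 differences of -2.99, -3.78 and -3.52, and stopped at both borders.

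Centriole assembly genes followed the same direction, with 22 of 43 members lower, 0 higher and a median of -1.04. All 43 list members in the table were compared, and their summed level was 2035 FPKM at NF16 and 889.6 at NF24. The deuterosome scaffold deup1, listed as ccdc67, was at 0.0867, 26.2 and 2.58 FPKM. Its partner cep152, which recruits the kinase of centriole duplication, was at 29.7 and 7.02 FPKM, and that kinase, plk4, at 51.3 and 14.3 FPKM. Both genes act at the first step of making a new centriole. The cartwheel factor stil was at 39.2 and 10.4 FPKM and the centriole length gene cenpj at 20.3 and 8.33 FPKM. Genes of the maturing centriole wall were among the most different, poc1a at 38.5 and 2.97 FPKM with a log2 difference of -3.31, poc5 at 44.5 and 6.87 FPKM, cep120 at 32.9 and 4.88 FPKM and cep135 at 43.8 and 12.1 FPKM. The calcium-binding centrins were lower too, cetn4 at 18.5, 347 and 91.9 FPKM and cetn3 at 74.7, 108 and 38.3 FPKM. The cap protein ccp110, which must leave a centriole before it can grow a cilium, was at 26.2 and 7.03 FPKM, and its partners cep76 and kif24 were at 46.7 and 9.93 FPKM and 35.05 and 8.67 FPKM. Distal appendage gene cep83 was at 60.2 and 22.5 FPKM. The most abundant member, the kinase gene nek2, was at 515 and 268 FPKM and just missed the call at -0.94. With a pseudocount of 5 in place of 1, 15 of the 22 were called, and with median-of-ratios scaling 23 members were.

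RNA levels of most genes of the axoneme, which grows from these centrioles, stayed close to those at neurula. Among the dynein arm genes and their cytoplasmic assembly factors 1 of 36 was called, and the median of -0.02 turned to 0.05 when FPKM was rescaled to TPM. That gene, the assembly factor dnaaf2, was at 53.5 and 25.2 FPKM, and it was not called with TPM or a pseudocount of 5. The chaperones ruvbl1 and ruvbl2, which take part in dynein preassembly and in other complexes, were at 264 and 158 FPKM and 283 and 153 FPKM. The outer arm light chain dnal4 was at 145 and 122 FPKM and the docking gene armc4 at 93.1 and 103 FPKM. Among radial spoke, central pair, tektin and ruler genes 2 of 69 were higher and 1 lower, and 53 were above 0, with a median of 0.19. The lower member is the centrin cetn4, which both lists hold. Tektin 3, a filament protein of the doublet lumen, stood out at 3.32, 88.8 and 231 FPKM, a difference of 1.37. The other called member, pifo, was at 9.34 and 22.1 FPKM and lost its call with a pseudocount of 5 or quantile normalization, at 0.92 and 0.99. The most abundant axoneme gene, odf3, was at 1.18, 415 and 474 FPKM, and the central pair gene spag6 at 0.97, 192 and 198 FPKM. Both odf3 and spag6 were near 1 FPKM in the gastrula, so most of their difference lay before NF16.

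**Figure D2:**
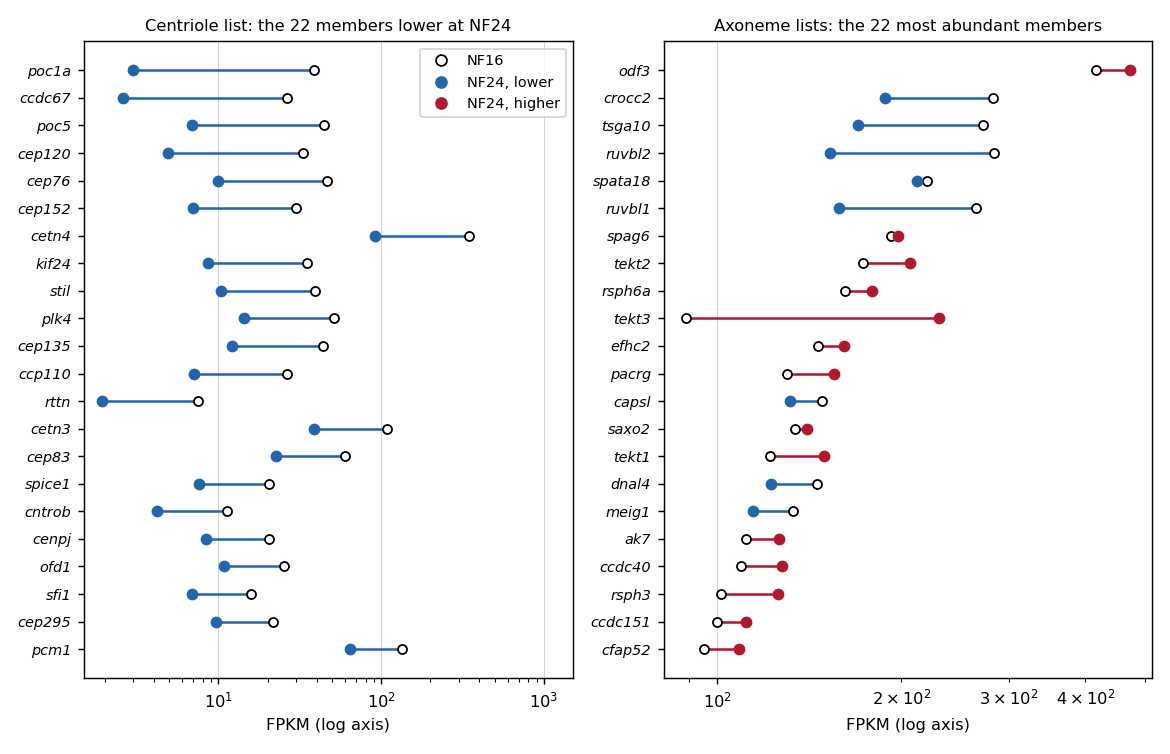
Levels in FPKM on a log axis at NF16 (open circles) and NF24 (filled, red where higher and blue where lower than at NF16, whatever the call) for the 22 called centriole genes on the left and the 22 most abundant axoneme genes on the right. The left genes were chosen by their call, so each spans a log2 difference of at least 1, as in poc1a from 38.5 to 2.97. The 21 centriole list members without a call are not drawn. The right genes were chosen by level, with cetn4 left out, and of them only tekt3, from 88.8 to 231, spans as much. Because of this choice the 2 panels are not a like comparison.

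Intraflagellar transport, which carries axoneme parts, and the BBS and transition zone genes lay slightly below their neurula level, with 43 of 58 below 0, a median of -0.20 and a single call. This was bbs12, a chaperone-like gene of BBSome assembly, at 3.97, 9.68 and 1.36 FPKM. The abundant transport subunits ift46, ift22 and ttc30a were at 85.5 and 75.8 FPKM, 74.8 and 75.3 FPKM and 56.9 and 57.3 FPKM. Tubulins were mixed, 3 of 25 higher and 2 lower, and their median of 0.08 turned to -0.09 under median-of-ratios scaling. Tubulin genes are near-identical in sequence, so the share of reads given to each is uncertain. The main alpha tubulin tuba1a was at 2287 and 1545 FPKM, tuba3e at 25.6 and 5.32 FPKM and tuba4 at 11.4 and 2.71 FPKM, while the neuronal beta tubulin tubb3 was at 3.95 and 16.6 FPKM. Of 9 septins, which form rings at the base of cilia and in dividing cells, 1 was called, septin12 (held in the table under a date-like name) at 21 and 44.6 FPKM. Its log2 difference was 1.05, and the call was lost under median-of-ratios scaling, quantile normalization and a pseudocount of 5.

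Cell cycle genes were more often called lower than higher. Of 42 cyclins, kinases and inhibitors 9 were lower and 1 higher, with a median of -0.46. The embryonic cyclin ccna1 was at 323, 125 and 12.5 FPKM, and fbxo43, an inhibitor of the anaphase-promoting complex, at 11.2, 20.1 and 1.11 FPKM. The S phase cyclins ccne1 and ccne2 were at 22.3 and 5.89 FPKM and 45.4 and 18.9 FPKM, and e2f7, a repressor of E2F targets, at 30.5 and 8.74 FPKM. Of the G1 genes, the pocket protein rb1 was at 20.96 and 8.67 FPKM, while ccnd1, at 123 and 62.6 FPKM, was not called. The single higher member, btg5 of the antiproliferative BTG family, was at 4.64 and 17.2 FPKM. DNA replication genes had 6 of 58 lower and none higher (median -0.41). The sliding clamp pcna was at 451, 153 and 64.97 FPKM, the helicase subunit mcm3 at 7.26 and 1.77 FPKM and gins2 at 28.9 and 10.55 FPKM. With a pseudocount of 5, 2 of the 6 were called. The ribonucleotide reductase subunit rrm2.1 and the dUTPase dut, both makers of DNA precursors and both named here after their values were seen, were at 348, 34.98 and 5.96 FPKM and 79.2, 37.1 and 14.1 FPKM. Mitotic genes held calls in both directions, with 4 of 70 lower, 1 higher and a median of 0.08 that turned to -0.08 under median-of-ratios scaling. The lower share of 5.71% was near the 5.12% over all genes compared, and 40 of the 70 lay above 0. The survivin gene birc5.1 was at 4.72 and 0.553 FPKM and cdc20 at 88.9 and 41.7 FPKM, while plk1 was at 57.04 and 59.7 FPKM and ect2, which sets the cleavage plane, at 6.36 and 21.01 FPKM.

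Of 27 histone genes 9 were lower and none higher, with a median of -0.70 and a summed level of 7593 and 4385 FPKM. The variant h2afz, the most abundant, was at 1609, 1981 and 846 FPKM (not called under quantile normalization, at -0.85), and h2afx, which marks DNA breaks, at 102 and 46.5 FPKM. The linker histones h1fx and h1f0 were at 74.1 and 28.8 FPKM and 30.2 and 11.96 FPKM. Replication-dependent copies share nearly all of their sequence, so single copies such as hist1h2am (7.79 and 0.35 FPKM) are uncertain. The replacement variant h3f3a, in contrast, had a log2 difference of -0.17 at 603 and 535 FPKM.

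What remained of the oocyte and pluripotency programme at NF16 was lower still at NF24. Of 42 members 19 were lower and 0 higher (median -0.89). Most were already low, and with a pseudocount of 5, 6 of the 19 were called. The Oct4 relative pou5f3.1 was at 136, 30.02 and 3.45 FPKM and pou5f3.2 at 288, 6.26 and 1.24 FPKM. The homeobox repressors ventx1.1 and ventx1.2 were at 32.9 and 14.2 FPKM and 14.6 and 3.91 FPKM, whereas ventx2.2 kept 85.6 FPKM. The egg coat genes zp4, zpd and zp2 were at 135, 50.3 and 22.7 FPKM, 84.02, 24.9 and 9.46 FPKM and 80.6, 10.6 and 2.27 FPKM. The oocyte cap-binding gene eif4e1b was at 58.04, 20.9 and 5.55 FPKM. The let-7 antagonist lin28a did not share in this, at 246 and 229.9 FPKM, nor did the mRNA-binding igf2bp3, at 227 and 227 FPKM.

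The Notch list held 10 lower and 0 higher genes of 40, while its median of 0.02 turned to -0.14 under median-of-ratios scaling, so a subset and not the whole list differed. Notch ligands on a cell hold back the same fate in its neighbours, through Hes repressors, and in this epidermis this spaces multiciliated cells and ionocytes. Of the 10 lower members 8 were hes genes, and the others were the ligand dlc at 21.1 and 7.39 FPKM and the glycosyltransferase lfng, which tunes Notch for its ligands, at 48.8 and 21.4 FPKM. The ligand dll1 was at 53.8 and 35.7 FPKM. The repressors hes1 and hes4, which lie outside the cluster described next, were at 79.7 and 85.4 FPKM and 68.5 and 91.5 FPKM.

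A run of 7 consecutive compared genes, all hes5-type repressors in the RefSeq naming, was lower as a block. In chromosomal order the block began with hes5.3 (listed as hes3.3) at 0.51, 15.9 and 4.02 FPKM and hes5.4 (hes8) at 0.7, 26.3 and 4.67 FPKM. In its middle lay hes5.5 (esr10) at 1.83, 6.29 and 1.61 FPKM, hes5.7 (hes9.1) at 2.44, 7.73 and 2.21 FPKM and hes5.8 (LOC100495414) at 9.09, 15.4 and 5.94 FPKM. It ended with hes5.9 (LOC733709) at 30.6, 13.7 and 2.84 FPKM and hes5.10 (hes3.1) at 49.2, 11.5 and 3.14 FPKM. Their log2 differences ran from -2.27 in hes5.4 to -1.24 in hes5.8. The flanking genes were not called, nol9 at 11.01 and 11.8 FPKM and zbtb48 at 3.83 and 3.92 FPKM. At the earlier step the block was not uniform, since hes5.9 and hes5.10 were already higher at NF10.5 than at NF16 and the first 5 were highest at NF16. The genes are related copies, so reads could have been divided among them.

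**Figure D3:**
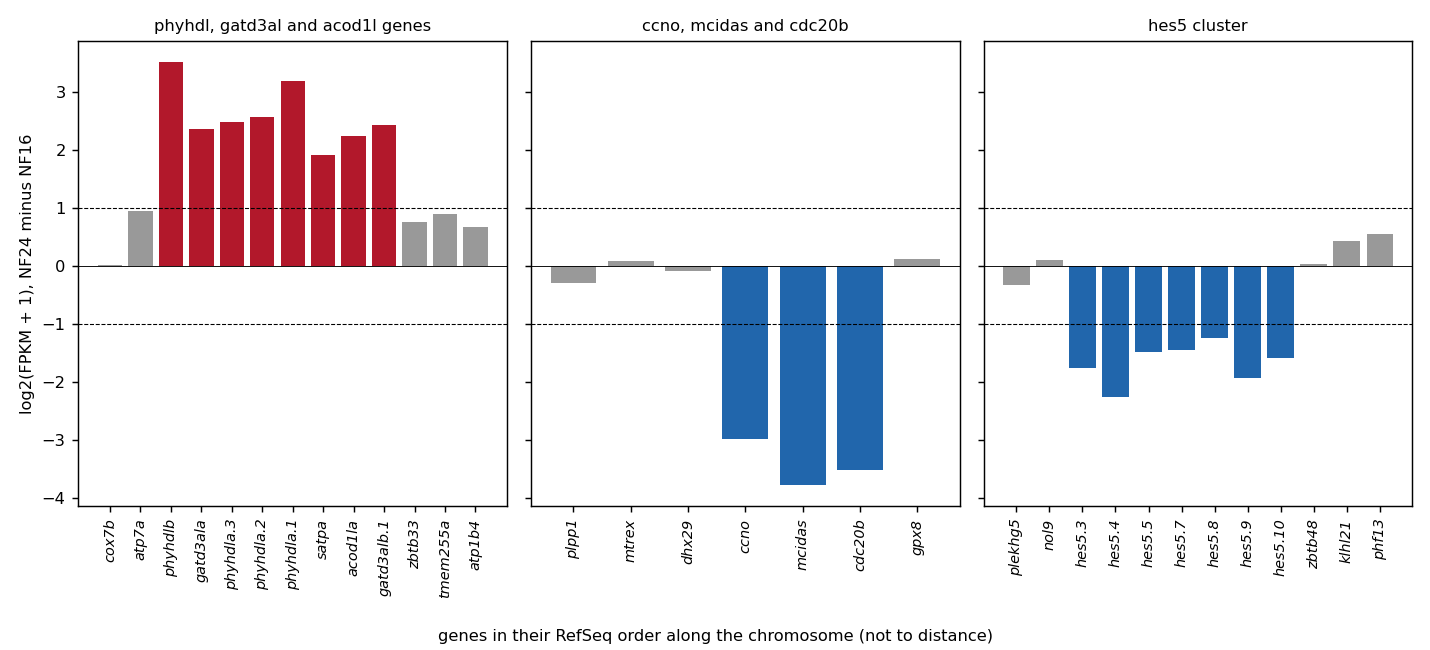
Log2 difference in log2(FPKM + 1), NF24 minus NF16 (y axis), of compared genes in their RefSeq order, not to distance, for 3 stretches of the genome; red bars are called higher, blue lower, grey not called, and the dashed lines mark 1 and -1. A block of 8 higher genes, a block of 3 lower genes around mcidas and a block of 7 lower hes5 genes each end at grey bars.

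The largest block of higher genes was 8 compared genes in a row, named phyhdlb, gatd3ala, phyhdla.3, phyhdla.2, phyhdla.1, satpa, acod1la and gatd3alb.1 in the RefSeq table and listed by locus identifiers in the deposited one. The names place them in a few small families whose roles in frogs are not stated here. At the first border, phyhdlb (LOC100490918) was at 2.43, 17.7 and 212 FPKM and gatd3ala (LOC101734069) at 161, 149 and 773 FPKM. The 3 genes phyhdla.3, phyhdla.2 and phyhdla.1 (LOC100490235, LOC100490748 and LOC101734170) were at 92.6, 63.8 and 361 FPKM, at 54.5, 40.4 and 246 FPKM and at 10.82, 9.79 and 98.2 FPKM. All 3 were more abundant at NF10.5 than at NF16. At the other end satpa (LOC100489887) was at 23.6, 43.6 and 168 FPKM, acod1la (LOC100490060) at 42.1, 19.6 and 96.7 FPKM and gatd3alb.1 (LOC100491202) at 25.7, 7.14 and 42.9 FPKM. The log2 differences lay between 1.92 (satpa) and 3.51 (phyhdlb). The most abundant, gatd3ala, was already at 149 FPKM at NF16. The next compared genes on both sides were between 0 and 1, with atp7a at 0.95 and zbtb33 at 0.77. The copy gatd3alb.2 (LOC108648368), next to gatd3alb.1, was at 0.367 and 0.447 FPKM and was not compared. LOC116406583, inside the block, and acod1lb, next to phyhdlb, had no values. Copies of the same gene within the block share sequence, so the division between them is uncertain. Runs of 3 or more were sought after the values had been seen, and 10857 compared genes could be placed in order. There were 11 runs of higher and 7 of lower genes, and the runs of 8 and 7 were the longest in each direction.

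The mucus lectin genes itln1 and itln2 were higher, and the genes named here that supply sugar donors were not. Of 18 goblet genes (27 in the table) 5 were higher and 0 lower, with a median of 0.45 and a summed level of 2849 and 4097 FPKM. Of the 18, 11 lay above 0, and without the filter on low values the list median was 0.009. The sugar-binding lectin itln2 was at 0.967, 336 and 954 FPKM and its relative itln1 at 1.58, 547 and 1118 FPKM, which was no longer called under median-of-ratios scaling (0.86). The gel-forming otog and fcgbp, large proteins of the mucus layer, were at 304 and 436 FPKM and 277 and 459.6 FPKM and not called. The disulfide isomerase agr2, needed for mucin folding, was at 672 and 539.9 FPKM. Beside these, 6 of 78 glycosyltransferase and sulfotransferase genes were higher (7.69%, against 7.3% over all genes compared) and none lower. They included galnt12, which starts mucin sugar chains, at 10.75 and 28.1 FPKM, fut5 at 3.27 and 11.5 FPKM and papss2, which makes the sulfate donor, at 6.93 and 20.3 FPKM. Enzymes that supply the sugar donors were not counted separately. Of them gfpt1, the first step of the hexosamine pathway, was at 325, 2049.6 and 1109 FPKM and uap1 at 251 and 159 FPKM. In the same direction ugdh.2, a UDP-glucose dehydrogenase, was at 48.5, 422 and 48.2 FPKM, a difference of -3.10, while its paralog ugdh was at 53.02 and 74.9 FPKM.

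ER folding genes were called in 4 of 72 cases, all higher. This share of 5.56% lay below the 7.3% over all genes compared, and the median of 0.08 turned to -0.08 under median-of-ratios scaling. The 4 were the chaperone hspa5 (BiP) at 83.2, 107 and 348 FPKM, hyou1 at 52.1, 12.8 and 36.04 FPKM, pdia4 at 10.78, 12.2 and 32.4 FPKM and dnajb9 at 14.1, 8.02 and 21.5 FPKM. In other vertebrates all 4 are known targets of the unfolded protein response, and whether that response was active here was not tested. The bulk of the folding and export machinery was not called, with calr at 1106 and 659.6 FPKM, canx at 524 and 510 FPKM and the translocon gene sec61a1 at 586 and 531 FPKM. Of the transcription factors of this response, atf4 at 174 and 242 FPKM and xbp1 at 143 and 101 FPKM were not called. The factor ddit3, at 13.8 and 28.5 FPKM, fell just short of the call. The stress factor atf3, at 7.02 and 15.1 FPKM, was just inside it and lost its call with a pseudocount of 5 (0.74). Rab GTPases, which direct vesicle traffic, had 3 of 51 higher (5.88%, also below 7.3%) and a median of 0.36. Levels were 1.17 and 9.63 FPKM for rab30, 8.28 and 23.2 FPKM for rab4b and 159.9 and 263 FPKM for the recycling gene rab11a.

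Small secretory cell genes had 7 of 21 higher and 0 lower, with a median of 0.46, but the vesicle transporters that mark these cells were near their neurula level. Monoamine transporters slc18a1 and slc18a2 were at 211 and 276 FPKM and 93.2 and 82.1 FPKM, and the granule protein chga at 134 and 108 FPKM. The regulator of their fate, foxa1, stood at 64.6 and 49.5 FPKM. Higher were ddc, the decarboxylase that makes serotonin and dopamine, at 0.0967, 4.51 and 14.8 FPKM, the peptide-amidating pam at 7.27 and 16.7 FPKM, the amine-degrading maob at 0.453 and 2.41 FPKM and the granule gene scg3 at 0.67 and 2.56 FPKM. The cGMP-dependent kinase prkg1 had the largest difference of this list, at 0.567, 1.71 and 18.8 FPKM. With a pseudocount of 5, 2 of the 7 were called, and 4 under median-of-ratios scaling or quantile normalization, where pam and scg3 lost theirs.

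Ionocyte genes had 4 of 26 higher and 2 lower, and their median of 0.12 turned to -0.04 under median-of-ratios scaling. The defining factor foxi1 was at 47.3, 164 and 131 FPKM, the anion exchanger slc26a4 (pendrin) at 0.463, 244 and 276 FPKM and the carbonic anhydrase ca2 at 0.277, 120.3 and 213 FPKM. The higher members were low in level, slc9a4, a sodium-proton exchanger, at 0.64 and 4.06 FPKM, and bsnd, the chloride channel subunit barttin, at 3.17 and 10.6 FPKM. The lower ones were ubp1 at 85.7 and 41.2 FPKM and foxi4.2 at 22.3 and 10.3 FPKM, and ubp1 was not called with TPM (-0.98). With a pseudocount of 5 none of the 6 was called. No V-ATPase subunit was called among 18, though 17 were above 0, with the membrane ring gene atp6v0c at 195 and 265 FPKM and a summed level of 1495 and 1892 FPKM.

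Of 38 Na,K-ATPase, potassium and chloride channel genes (109 in the table) 3 were higher and 1 lower, with a median of 0.15. These shares of 7.89% and 2.63% compare with 7.3% and 5.12% over all genes compared. The calcium-activated chloride channel ano1 was at 19.8, 4.81 and 32.6 FPKM, a difference of 2.53, with kcnk1 at 10.3 and 27.3 FPKM and, on the lower side, kcnk9 at 7.82 and 1.36 FPKM. Of 10 aquaporins and TRP channels (32 in the table) 3 were higher and 2 lower. Of the TRP channels that sense heat, irritants and touch, trpv2 was at 0.243, 7.19 and 42.2 FPKM and trpa1 at 1.57, 3.18 and 13.4 FPKM, while trpm4 was lower at 20.6 and 8.62 FPKM. Among 188 solute carriers 23 were higher and 5 lower, and 13 and 8 under median-of-ratios scaling. They included slc1a3, a glutamate transporter, at 1.09 and 6.97 FPKM, the fatty acid transporter slc27a4 at 15.7 and 51.7 FPKM, the iron exporter slc40a1 at 8.88 and 21.2 FPKM and the mitochondrial iron importer slc25a37 at 1.26 and 6.03 FPKM. The most abundant carrier, the ADP/ATP exchanger slc25a5, was at 2360.4 and 2452 FPKM.

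Most structural genes of the epidermal sheet were not called. Of 10 keratins and vimentin (28 in the table) 1 was called, a keratin gene listed as LOC100490729, at 0.33 and 2.24 FPKM, and the summed level was 34379 and 33880.4 FPKM. The most abundant gene of both stages, krt5.7, was at 690.5, 17079 and 22588 FPKM, or 3.21% and 4.46% of all FPKM, and krt at 611, 12721 and 7363 FPKM. The order of these keratins was the same at both stages, with krt5.7 above krt and krt8 (3627 and 2889 FPKM). No desmosome or cornified envelope gene was called of 14, but 11 were above 0, with a median of 0.54, as in the plakin genes ppl at 278 and 430.3 FPKM and evpl at 188 and 299 FPKM and the plaque gene pkp3 at 193 and 336 FPKM. No tight junction gene was called of 31, with cldn4 at 798 and 842 FPKM, cldn6.2 at 548 and 323 FPKM and cldn1 at 261 and 398 FPKM. Of 29 cadherin and catenin genes 2 were higher and 3 lower (6.9% and 10.3%, against 7.3% and 5.12% over all genes compared). The epithelial cadherin cdh1 was at 497 and 619.9 FPKM. Of 6 gap junction genes 3 were higher and 0 lower, with a median of 0.74, and none was called with a pseudocount of 5. Among them gjb2 was at 10.9 and 25.4 FPKM and missed the call under median-of-ratios scaling too, while gjb1, the most abundant of the list, was at 29.9 and 34.7 FPKM. In the actin list 5 of 57 were higher and 3 lower, shares of 8.77% and 5.26% that lay near those over all genes compared. The regulatory light chain myl9 was at 3.92, 51.1 and 201 FPKM. The myosin heavy chains myh4 and myh8, muscle genes in other vertebrates, were at 6.89 and 22.8 FPKM and 7.75 and 26.7 FPKM.

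**Figure D4:**
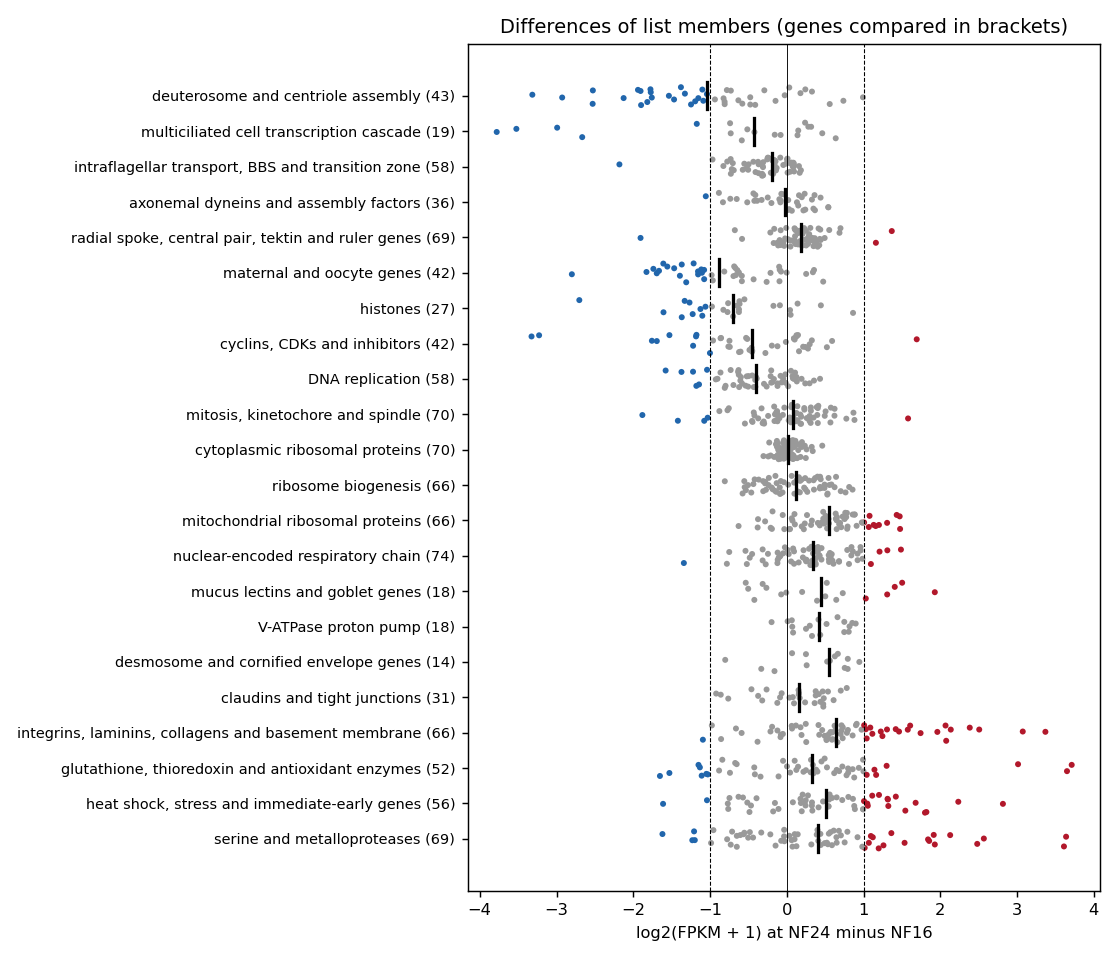
Log2 difference in log2(FPKM + 1), NF24 minus NF16 (x axis), of the compared members of 22 gene lists; each point is 1 gene, red where called higher and blue where called lower, the vertical bars are list medians and the dashed lines mark 1 and -1. Of the lists shown, the centriole, maternal and histone lists lie farthest to the left, with medians of -1.04, -0.89 and -0.70. The list of integrins, laminins, collagens and basement membrane lies farthest to the right, at 0.65. Lists not shown had larger medians, among them blood and endothelium at 0.97, gap junctions at 0.74 and muscle and somite at 0.72.

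Of 66 extracellular matrix genes 21 were higher and 1 lower, with a median of 0.65. The beaded filament collagen VI led, with all of its compared chains higher, col6a1 at 0.19, 3.61 and 46.6 FPKM, col6a2 at 0.4, 3.06 and 33.2 FPKM, col6a3 at 0.453, 0.603 and 8.11 FPKM and the gene named col6a5 in RefSeq (LOC100486063) at 1.88 and 14.02 FPKM. The chains col6a1 and col6a2 are neighbours in the genome, and the folate carrier slc19a1 beside them was at 2.21 and 5.66 FPKM. The basement membrane chains col4a5 and col4a6 were at 2.2 and 7.81 FPKM and 0.817 and 6.98 FPKM, and the fibril collagen col5a2 at 1.16 and 8.04 FPKM. Of the anchoring genes of stratified epithelium, col17a1 of the hemidesmosome was at 0.17 and 2.56 FPKM and the collagen receptor itga2 at 2.74 and 14.8 FPKM. The abundant members were not called, with itgb1 at 152 and 144 FPKM, lamb1 at 80.5 and 70.3 FPKM, lamc1 at 47.9 and 46.2 FPKM, col18a1 at 79.7 and 68.6 FPKM and sparc at 85 and 132 FPKM. With a pseudocount of 5 the higher count was 8. Collagens are also made by mesenchyme. Beside these values, 5 of 17 compared muscle and somite markers were higher and 1 lower, and the whole list summed to 186 and 341 FPKM. Actin actc1 was at 0.647, 50.2 and 93.2 FPKM, the light chain mylpf at 0.113, 39.6 and 65.1 FPKM and the troponin tnnc2 at 3.62 and 14.4 FPKM. The part of such cells in the matrix values was not tested. In the list of heart, notochord and other mesoderm 3 of 16 were higher and 2 lower, with a median of 0.37, and with a pseudocount of 5 the counts were 0 and 1. Its member t (brachyury) was lower at 30.1, 24.04 and 5.89 FPKM, and not, of the notochord, was at 3.29 and 3.33 FPKM. The presomitic gene msgn1, named after its value was seen, was at 0.13, 29.4 and 4.51 FPKM.

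Redox genes were called in both directions, 7 higher and 7 lower of 52, with log2 differences from -1.65 to 3.71. Thioredoxin (txn), a small disulfide reductase, was at 1.33, 3.54 and 58.5 FPKM, and txnrd1, the enzyme that recharges it, at 0.0467, 0.34 and 9.81 FPKM. The glutathione transferase gstp1 was at 0.35, 13.04 and 175 FPKM, a 13.4-fold ratio. Glutaredoxin (glrx) was at 30.8 and 77.2 FPKM and the microsomal transferase mgst3 at 34.3 and 76.9 FPKM. Lower were the peroxidases gpx3 at 50.4, 22.4 and 6.45 FPKM and gpx4 at 97.3, 70.2 and 33.9 FPKM, the selenoprotein sepw1 at 46.7 and 20.7 FPKM and the transferase gstm1 at 20.5 and 6.46 FPKM. So the pair of thioredoxin and its reductase was at its highest of the 3 stages at NF24, and gpx3 and gpx4 were lower than at NF16. Glutathione supply, looked at after the values were seen, had gclc at 94.9 and 166 FPKM, gclm at 60.2 and 66.7 FPKM, the cystine importer slc7a11 at 0.24 and 3 FPKM and chac1, which breaks glutathione down, at 17.9, 32.7 and 197 FPKM. The factor nfe2l2 (Nrf2), a regulator of redox genes in mammals, was at 22.04 and 31.4 FPKM and its partner keap1 at 13.6 and 23.96 FPKM, neither called. The gene pir, an Nrf2 target in mammals, was at 3.93, 4.003 and 31.8 FPKM. A part of Nrf2 in any of these values was not tested. The iron store fth1, the ferritin heavy chain, was at 908 and 1579 FPKM.

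**Figure D5:**
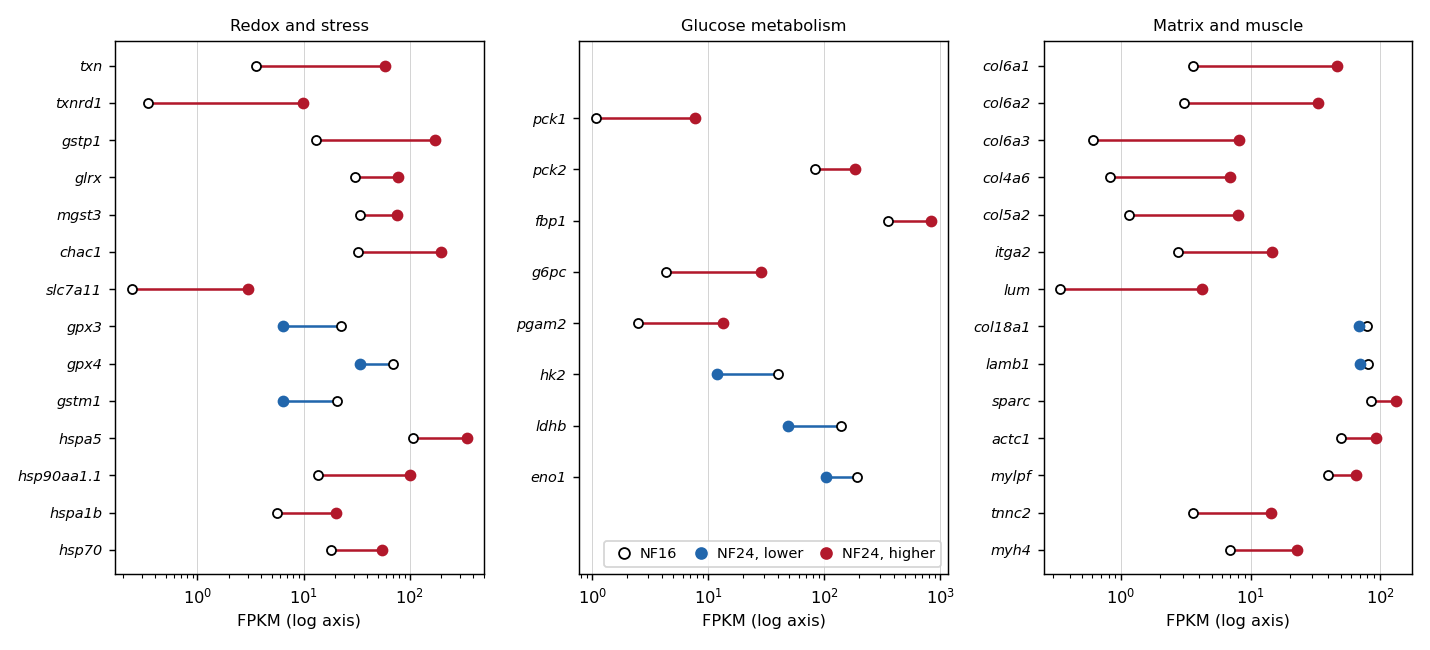
Levels in FPKM on a log axis at NF16 (open circles) and NF24 (filled, red where higher and blue where lower than at NF16, whatever the call) for chosen redox and stress, glucose, and matrix and muscle genes. Thioredoxin spans from 3.54 to 58.5 FPKM, col6a1 from 3.61 to 46.6, and hk2 and ldhb run the other way, from 40.1 to 11.8 and from 140 to 48.95.

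Of 56 stress genes 15 were higher and 2 lower, with a median of 0.51. The inducible cytosolic chaperones were among them, hsp90aa1.1 at 6.01, 13.5 and 101 FPKM, hspa1b at 0.327, 5.60 and 20.1 FPKM, hsp70 at 0.25, 18.1 and 54.6 FPKM and their cochaperone dnajb1 at 11.8 and 33.3 FPKM, and hsp70 copies share sequence. The mitochondrial chaperone hspa9 was at 13.5 and 49.3 FPKM, while the constitutive hspa8 was at 1561 and 1848 FPKM. Immediate-early factors were higher as well, fosl1 at 1.06, 2.51 and 15.5 FPKM, egr1 at 0.35, 2.66 and 11.9 FPKM, nr4a1 at 1.17, 17.5 and 45.02 FPKM and ier2 at 46.9 and 103 FPKM. Lower were klf2 at 8.18 and 2.003 FPKM and gadd45a at 46.5 and 22.1 FPKM. Detoxifying enzymes went both ways, 12 of 62 higher and 8 lower. The export pump abcc3 was at 0.0867, 10.2 and 52.7 FPKM, the carbonyl reductase cbr1 at 0.38 and 4.92 FPKM and the sulfotransferase sult1e1 at 11.03 and 31.8 FPKM. On the other side stood aldh1l1 at 218 and 79.1 FPKM and the retinoic acid hydroxylase cyp26a1 at 29.3 and 9.15 FPKM.

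Among 69 proteases 17 were higher and 4 lower, with a median of 0.41. Of 14 protease inhibitors 0 were higher and 1 lower. The serine protease prss29 reached 547 FPKM from 43.04 at NF16 and 1.78 at NF10.5. The collagenase mmp1 was at 0.503, 1.46 and 29 FPKM, the metalloprotease adamts1 at 5.07 and 25.5 FPKM, the membrane protease tmprss2 at 1.58 and 8.82 FPKM and the calpain capn2.2 at 22.1 and 85.9 FPKM. The astacin gene that RefSeq names astl2d.2 (LOC105947175) was at 1.12, 13.8 and 86.7 FPKM. Astacins of this family are also markers of the hatching gland. The hatching gland list, with 2 of 7 members compared and none called, summed to 39.6 and 41.03 FPKM. The part of such cells in the protease values was not tested. Of the lower members, bmp1 and tll2, which cut procollagen and the BMP antagonist Chordin, were at 14.3 and 5.61 FPKM and 15.9 and 4.51 FPKM. The inhibitor serpinf2 was at 58.8 and 14.7 FPKM. With a pseudocount of 5, 9 were higher and 1 lower. Few immune genes were called. Of 22 complement and pattern recognition genes 2 were higher (9.09%, against 7.3% over all genes compared) and none lower. They were il1b at 4.44, 0.243 and 4.65 FPKM and nfkb2 at 5.63 and 13.5 FPKM, the second not called under median-of-ratios scaling (0.99). Of 14 interferon response and antigen presentation genes 2 were lower (14.3%, against 5.12%) and none higher, among them the guanylate-binding gbp1 at 9.32 and 2.13 FPKM.

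In glucose metabolism calls went both ways, and genes of glucose production and glucose use were not counted as separate groups. Of 36 glycolysis and pyruvate genes 7 were higher and 2 lower. Among the higher members were gluconeogenic genes, pck1 at 0.0367, 1.08 and 7.69 FPKM, pck2 at 93.4, 83.5 and 186 FPKM, fbp1 at 11.3, 357 and 837 FPKM and the glucose-6-phosphatase g6pc at 0.163, 4.34 and 28.3 FPKM. Lower were hk2, which traps glucose, at 65.9, 40.1 and 11.8 FPKM, and ldhb at 242, 140 and 48.95 FPKM. The gene eno1, at 191 and 102 FPKM, was not called. Pyruvate entry, through mpc1 and mpc2, was at 441 and 503 FPKM and 302 and 347 FPKM. Of 21 citric acid cycle genes 2 were higher and 3 lower, with the fumarase fh at 50.1 and 19.7 FPKM and the cytosolic idh1 at 67.1 and 138 FPKM. Under median-of-ratios scaling idh1 was not called (0.87).

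Genes of mitochondrial protein synthesis lay mostly above 0. Of 66 mitochondrial ribosomal proteins 57 were above 0, 10 were higher and 0 lower, with a median of 0.55. Examples were mrpl4 at 1.91 and 7.08 FPKM, mrpl19 at 7.28 and 21.9 FPKM and mrps6 at 6.82 and 20.1 FPKM. The count was 6 under median-of-ratios scaling, 5 under quantile normalization and 2 with a pseudocount of 5, while the median stayed above 0 in these settings. Cytoplasmic ribosomal proteins had no called gene of 70, and their median of 0.02 turned to -0.14 under median-of-ratios scaling. The respiratory chain had 4 of 74 higher and 1 lower (median 0.34). These shares of 5.41% and 1.35% lay below the 7.3% and 5.12% over all genes compared. Its higher member cytochrome c (cycs) was at 656, 276 and 591 FPKM, and median-of-ratios scaling put it at 0.93, below the call. The nuclear receptor esrra, a regulator of respiratory genes in mammals, was at 0.517, 33.3 and 106 FPKM. In translation, eef2k, the kinase that slows elongation, was at 0.13, 16.1 and 59.4 FPKM, and the elongation factor copy eef1a1o at 7373 and 4069.8 FPKM. Lipid genes had 8 of 56 higher and 2 lower, with apoe at 0.0267, 9.59 and 41.9 FPKM and ldlr, which takes up its particles, at 7.55, 2.67 and 13.3 FPKM, and the droplet coats plin2 and plin3 lower at 34.1 and 13.5 FPKM and 4.98 and 0.803 FPKM. Polyamine synthesis had odc1 at 957 and 498 FPKM and, on the higher side, spermine synthase sms at 40.9 and 97.2 FPKM.

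Signalling lists held calls in both directions. In the Wnt list 3 of 54 were higher and 5 lower (5.56% and 9.26%, against 7.3% and 5.12% over all genes compared). Lower were the target genes sp5l and sp5 at 27.4 and 8.73 FPKM and 3.14 and 0.777 FPKM and the ligand wnt8a at 6.99 and 2.05 FPKM. On the higher side were kremen2, a receptor for Dkk antagonists, at 3.37 and 12.7 FPKM and the ligand wnt10a at 1.397 and 4.86 FPKM. The BMP and TGF-beta list had 6 of 43 higher and 2 lower (14% and 4.65%). Its median of 0.07 turned to -0.09 under median-of-ratios scaling, where 3 were higher and 3 lower. The receptors bmpr2 and tgfbr2 were at 3.27 and 13.1 FPKM and 1.26 and 5.79 FPKM, the ligands bmp2 and bmp7.2 at 6.54 and 15.04 FPKM and 26.96 and 8.97 FPKM, the antagonist nog at 2.80 and 8.15 FPKM and the target msx2 at 86.8 and 195 FPKM, not called under median-of-ratios scaling (0.99). The most abundant target, id3, was at 1265 and 698 FPKM. Among growth factors and receptor kinases, the receptor kit and its ligand kitlg were both lower, at 10.1, 121 and 44.7 FPKM and 35.3, 147 and 63.1 FPKM. The FGF carrier fgfbp1, which frees stored FGF from matrix, was at 0.16, 1.22 and 22.4 FPKM, and fgf8 and fgfr4 were lower at 13.6 and 4.78 FPKM and 30.6 and 12.1 FPKM. The deiodinase dio3, which inactivates thyroid hormone, was at 2.42, 0.817 and 16.2 FPKM.

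Regulators of ectoderm went both ways, 6 of 47 higher and 4 lower, and their median of -0.01 turned to 0.05 with TPM. The distal-less genes dlx4, dlx2 and dlx1 were higher, at 0.85, 15.02 and 53.5 FPKM, 12.4 and 32.8 FPKM and 2.25 and 6.97 FPKM, while dlx3, the most abundant of them, was at 609 and 621 FPKM. The epithelial Ets factor elf3 was at 0.0133, 5.74 and 15.8 FPKM. Lower were klf5 at 55.2, 124 and 34.4 FPKM, ets1 at 51.8, 72.1 and 23.9 FPKM and gata2 at 137 and 63.4 FPKM. The barrier factor grhl3 was at 400 and 379 FPKM and tfap2a at 252 and 187 FPKM, neither called. Of 12 Sox factors sox3, of the early neural plate, was lower at 793, 89.3 and 28.1 FPKM, and sox9 higher at 6.11 and 15.6 FPKM. Of 19 neural crest and pigment genes 5 were lower and 2 higher, with a median of -0.14. The lower ones included kit and ets1 and the melanosome genes pmel at 141, 48.97 and 19.6 FPKM, tyrp1 at 48.7, 11.4 and 3.06 FPKM and dct at 44.1, 6.43 and 1.09 FPKM. The higher ones were sox9 and the endothelin receptor ednra, at 0.567 and 3.32 FPKM, and with a pseudocount of 5 the counts were 4 lower and 0 higher. The caudal genes cdx1 and cdx2 of posterior tissue were at 9.31 and 1.44 FPKM and 68.7 and 21.2 FPKM. The homeobox gene crx, of the cement gland and eye, was at 15.3 and 2.98 FPKM and the cement gland gene ag1 at 178 and 121 FPKM.

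Among single genes with a symbol and at least 10 FPKM in the higher stage, the 15 with the largest difference in each direction included several not yet described. On the higher side were crisp2, a secreted cysteine-rich protein gene, at 0.0267, 5.103 and 71.7 FPKM, the LIM gene csrp1 at 0.99, 0.753 and 11.5 FPKM, the guidance cue sema3d at 0.177, 3.71 and 31.4 FPKM and cnbd2 at 0.0267, 0.57 and 10.83 FPKM. On the lower side were znf329, a zinc finger gene, at 1.86, 30.2 and 2.02 FPKM, kiaa1456 at 26.6, 102 and 9.98 FPKM and wrap73, a gene of centriolar satellites and spindle poles, at 16.96, 22.2 and 1.95 FPKM. Each of these lower genes was highest of the 3 stages at NF16. Among genes without a symbol, LOC101734936 was at 0.193, 13.7 and 213 FPKM and its neighbour LOC100488700 at 2.28, 61.6 and 490.2 FPKM. LOC108646286 was listed at 0 at NF16 and at 48.6 FPKM at NF24, so no fold is given for it.

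The series also addresses splice isoforms. Of 5205 genes with 10 FPKM or more at both stages, 2711 had several transcripts, and in 199 of these (7.34%) the leading transcript, the one with the largest share of the gene's FPKM, differed. A switch, in which the later leader gained and the earlier lost at least 30 percentage points, was seen in 8 genes (0.295%). Shares were otherwise stable, with a median largest change of 4.67 points. In aim1, a crystallin-fold gene, the earlier leader held 66.2% at NF16 and 0.0161% at NF24, and the later leader 22.5% and 72.4%. In cdkal1, a tRNA-modifying enzyme, the later leader went from 34.96% to 80.3%, and in the peptidase gene tpp2 from 24.8% to 62.3%. The proton-potassium pump atp12a, used by mucociliary epithelium, was the most abundant, at 187, 409.5 and 281 FPKM. Its earlier leader held 99.8%, 65.7% and 35.2% over the 3 stages, a shift in the same direction at both steps, which share the NF16 mean. In tbc1d16 the later leader had also led at NF10.5, with 77.4%. Further switches were in tsc22d1 and LOC733507. The table does not show how reads that fit several transcripts were shared out.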

How the data were processed

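Values are the FPKM that the authors deposited, 1 column per stage, per the file headers. The aligner STAR 2.4.2a and the quantifier RSEM 1.3.0 come from the submitters' processing notes, and the genome build is not given in the sources used here. Libraries were directional and paired-end, from RNA freed of ribosomal RNA, per the labels' protocols. All 83506 values above 0 lie on steps of 0.01 divided by 3, as means of 3 rounded values would, so each column was taken as the mean over the labelled replicates. With no replicate values no test was possible, and a rule of size was used in its place.

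FPKM was summed over the transcripts of a gene (35047 rows, 35028 transcripts, 19 repeated rows kept) and compared on the log2(FPKM + 1) scale as deposited. RefSeq names (assembly UCB_Xtro_10.0) matched 16599 of 17647 genes (94.1%). Members of the 65 gene lists, and the rules, were chosen with earlier results of these data known. The rule for named genes takes, per direction, the 15 named genes of largest difference among those with 10 FPKM or more in the higher stage. It adds, per list, up to 6 called members and the 4 most abundant, all cell type markers, the genes beside the threshold and the transcript switches. Genes named outside it, the trimming of lists for wrong matches and the search for runs of neighbours came after values were seen. Python 3.11.15, pandas 2.3.3, numpy 2.4.6 and matplotlib 3.10.9 were used. Some members that the rule names are not reported here. Other pseudocounts, filters, scalings and transcript sums were tried.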

Additional observations from a re-analysis of the deposited data

How the results depend on the processing

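Relative to 813 higher and 570 lower genes, a pseudocount of 5 gave 271 higher and 270 lower, a pseudocount of 0.1 gave 1324 higher, and rescaling to TPM gave 1227 higher. The median difference was 0 under median-of-ratios scaling, by construction, and 0.032 under quantile normalization. Switches of the leading transcript numbered 20 with a gene minimum of 5 FPKM, 4 with 20 FPKM, 31 with a share change of 20 points and 2 with 40 points. No filter, a filter of 5 FPKM, the highest transcript alone and the first row of a repeated transcript left both counts within 1.5 times. Of 263 called named genes, 149 kept their call under all alternatives that gave a value. The call was lost in 109 with a pseudocount of 5, in 23 under median-of-ratios scaling, in 22 under quantile normalization, in 11 for the highest transcript and in 9 with TPM, and no called gene changed sign. A pseudocount of 5 weighs most on genes of low level. The solute carrier count then was 5 higher and 1 lower, and the detoxification count 5 and 3. None of the 4 higher genes in the list of blood, endothelium and myeloid cells was then still called. Leaving out each replicate was not run, since the table holds means alone. No paired analysis was possible because the columns carry no replicates. The depth behind the levels is unknown, so no limit of detection can be given.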

Other observations

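Some further groups and genes belong to no comparison above. Of 30 compared Hox genes 2 were lower (6.67%, against 5.12% over all genes compared) and 0 higher, with a median of -0.19. Among 43 splicing regulators a single gene was called, the repressor of alternative exons ptbp1, at 265, 606 and 206 FPKM. Its log2 difference was -1.55, while khdrbs1 and hnrnpl were not called, at -0.96 and -0.93. Under median-of-ratios scaling 5 of the list were lower and under quantile normalization 2. Nuclear receptors had 5 of 20 higher and 0 lower, among them nr1h2, a sensor of sterols, at 3.47 and 9.27 FPKM and ppard at 8.99 and 19.7 FPKM. Both lost their call with a pseudocount of 5 (0.75 and 0.82) and under quantile normalization (0.99 and 0.88), and ppard also under median-of-ratios scaling (0.90) and for the highest transcript alone (0.88). The list held 2 higher genes with a pseudocount of 5 and 3 under quantile normalization.

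Several other runs of neighbours were found, in a search made after the values had been seen. A run of 5 parvalbumin-type genes was higher, with RefSeq names ocm1, ocm4.6, ocm4.4, ocm4.3 and ocm4.2, and its most abundant member at NF24, ocm4.6 (LOC100170419), was at 2.78, 0.78 and 6.08 FPKM. All 5 were below 1 FPKM at NF16, so each entered the comparison only through NF24 and the calls are largely built in. Low genes there were not compared, LOC100486021 inside the run at 0.0433 and 0.0367 FPKM and ocm3 (pvalb.1) beside it at 0 and 0.04 FPKM. Parvalbumins are also known from muscle. A run of 3 crisp genes was higher, crisp2 at 0.0267, 5.103 and 71.7 FPKM, crisp1 at 0.02, 1.25 and 4.16 FPKM and crisp3 at 0.01, 2.13 and 9.33 FPKM. The catechol methyltransferases comt and comt.2 were higher side by side, at 2.19, 7.35 and 23.8 FPKM and 7.49, 5.503 and 18.2 FPKM. A lower run of 3 held slc24a5, myef2 and dut, with myef2 at 140.2, 275 and 135 FPKM and dut at 79.2, 37.1 and 14.1 FPKM. Another joined c11orf53 and colca2, coactivators of Pou2f3 in mammals, at 0.05, 19.8 and 7.42 FPKM and 0.323, 5.74 and 0.537 FPKM, with btg4 beside them at 25.9, 2.35 and 0.59 FPKM. The enzyme irg1, which makes itaconate in mammals, was at 34.1, 19.9 and 105 FPKM outside the run that holds acod1la. The p38 kinase mapk13 was at 0.303, 6.65 and 42.4 FPKM and the aldo-keto reductase akr1c2 at 0.0333, 6.81 and 44.6 FPKM.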
